A study of Mus musculus with 6 samples.

Results

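Crystallins are the bulk proteins of the lens, and 10 crystallin genes were followed here through dissociated mouse retina. The members were Cryaa and Cryab (alpha), Cryba1, Cryba2, Cryba4, Crybb1, Crybb2 and Crybb3 (beta), and Crygc and Crygs (gamma), which are 10 of the 31053 genes measured and 10 of the 19 whose symbol starts with Crya, Cryb or Cryg. They were picked by symbol, and with their levels in these samples already known. Those levels are therefore a description, and the calls given for members are reported without weight.

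The retinas came from mice at postnatal day 17 (P17). In oxygen-induced retinopathy (OIR), a model of ischemic retinopathy, pups breathed 75% oxygen from P7 to P12 and normal air after that, while control mice were never given extra oxygen. There were 3 OIR and 3 control samples, numbered 1 to 3 in each group, and each pooled the retinas of 2 mice. RNA was counted per cell with droplet 3' libraries as unique molecular identifiers (UMIs), which count molecules. Levels are given as CPM, the UMIs of a gene per 1000000 UMIs of the cells summed. Control 2 and control 3 carried Xist RNA and the other 4 samples Y-linked RNA, so sex and group were not balanced.

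Crystallins pack into the lens fibre at a density that keeps it clear. Alpha crystallins belong to the small heat shock proteins and hold unfolding proteins in solution, and Cryab is also made in glia, muscle and heart. Beta and gamma crystallins share a Greek key fold and are best known as lens structural proteins, although several are found in the retina. Crystallin RNA in a retinal sample can thus come with lens material that stays attached at dissection or from the retinal cells themselves.

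The members lie on 6 chromosomes (build GRCm38). Crybb1 (chromosome 5, 112255815 to 112269585, plus strand) and Cryba4 (chromosome 5, 112246493 to 112252518, minus strand) stand head to head with 3296 bases between them. Crybb2 (chromosome 5, 113058258 to 113070117) and Crybb3 (chromosome 5, 113075839 to 113081584) follow each other on the minus strand 5721 bases apart. Cryaa is on chromosome 17 (31677807 to 31681733), Cryba1 on chromosome 11 (77718615 to 77725283), Cryba2 and Crygc on chromosome 1, Crygs on chromosome 16 and Cryab on chromosome 9 (50751325 to 50756636). Cryab overlaps Hspb2, another small heat shock gene on the opposite strand, by 1030 bases, and Cryba1 lies inside the span of Nufip2 on the other strand. In the last 500 bases of their transcripts, where 3' libraries read, 17% of the 50-base windows of Crygc also occur in another crystallin transcript, mostly that of Crygb. No window of the other 9 members does. Part of the Crygc UMIs may thus have been lost as ambiguous or shared with Crygb.

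Several members turned up in retinal cells that make the transcription factor Maf, as described below, so the stretch before the transcription start was read for the Maf core site TGCTGAC, on both strands, within 250 bases upstream. RefSeq promoter windows (GRCm38.p6) were on hand for 9 members, all but Cryab. The core site was in 4 of the 9, against 3.81% of 32851 windows of all genes. It was not in the window of Crybb3, the member found with Maf in amacrine-like cells. These 4 are shown 5' to 3' on the strand of the gene, ending at the base before the start, with the core site in capitals, because they include Crybb1 and Cryba4, the pair found in microglia.
Cryaa: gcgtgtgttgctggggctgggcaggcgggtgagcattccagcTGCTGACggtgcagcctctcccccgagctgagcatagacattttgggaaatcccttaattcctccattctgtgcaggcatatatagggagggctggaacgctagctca
Cryba1: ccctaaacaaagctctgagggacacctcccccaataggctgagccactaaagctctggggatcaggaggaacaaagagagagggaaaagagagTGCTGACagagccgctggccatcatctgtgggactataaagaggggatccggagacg
Crybb1: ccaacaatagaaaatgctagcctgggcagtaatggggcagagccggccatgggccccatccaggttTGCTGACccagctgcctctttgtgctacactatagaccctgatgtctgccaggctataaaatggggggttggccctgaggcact
Cryba4: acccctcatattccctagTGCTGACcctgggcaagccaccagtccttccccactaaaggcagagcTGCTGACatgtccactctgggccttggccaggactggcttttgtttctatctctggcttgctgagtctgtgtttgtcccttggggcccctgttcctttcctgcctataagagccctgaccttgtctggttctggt
The windows are chr17:31677781-31677930 for Cryaa, chr11:77725294-77725443 for Cryba1, chr5:112255670-112255819 for Crybb1 and chr5:112252519-112252718 for Cryba4. The starts used here are those of RefSeq, which for Cryaa, Cryba1 and Crybb1 differ from the gene spans given above. For Cryaa the core site lies past the start of that span (31677807). All 5 core sites read in the direction of the gene. The site of Crybb1 began 84 bases before the start and that of Cryaa 108, while Cryba4 held 2, beginning 182 and 135 bases upstream. A heat shock element (GAANNTTC, a palindrome) was in 0 of the 9 windows against 6.69% of all, a GAGGAAGT of the PU.1 type in 0 against 2.44%, and a TATAAA in 3 (Cryba1, Crybb1 and Crygs) against 12.4%. A match is a run of letters and was not tested for binding.

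The files held 47631 barcodes with 15788524 to 42606878 UMIs per sample, and 38569 cells were left after removal of barcodes with under 500 or over 5000 genes or over 20% mitochondrial UMIs. The labels name retinal endothelial cells as the source, but 66.7% of the kept cells clustered with rods and only 196 had endothelial markers (VEC-like). Cell types carry "-like" because they were named from marker genes, and crystallins were left out of the genes that set the clusters. Any pair of libraries shared 9 to 34 barcodes. OIR 2 stood apart in the members, so each result on members is given with it visible or left out.

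Over all kept cells, 9 members were near 0 in most samples and high in OIR 2 alone. The exception was Cryab, which was high everywhere. Cryaa, the alpha crystallin best known from lens, had 11250 UMIs in OIR 2 and 2 and 20 in OIR 1 and OIR 3, against 1, 3 and 0 in the controls. Crygc had 10788 UMIs in OIR 2 and at most 17 in any other sample. Cryba1 had 10299 UMIs in OIR 2 and 0 to 26 in the other 5. The 9 members summed gave 29.1, 2824 and 17.4 CPM in the OIR samples and 12.4, 10.4 and 12.1 CPM in the controls. The OIR values do not overlap the control values, but the 2 lower ones lie close to them while OIR 2 is far above every other sample.

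**Figure D1:**
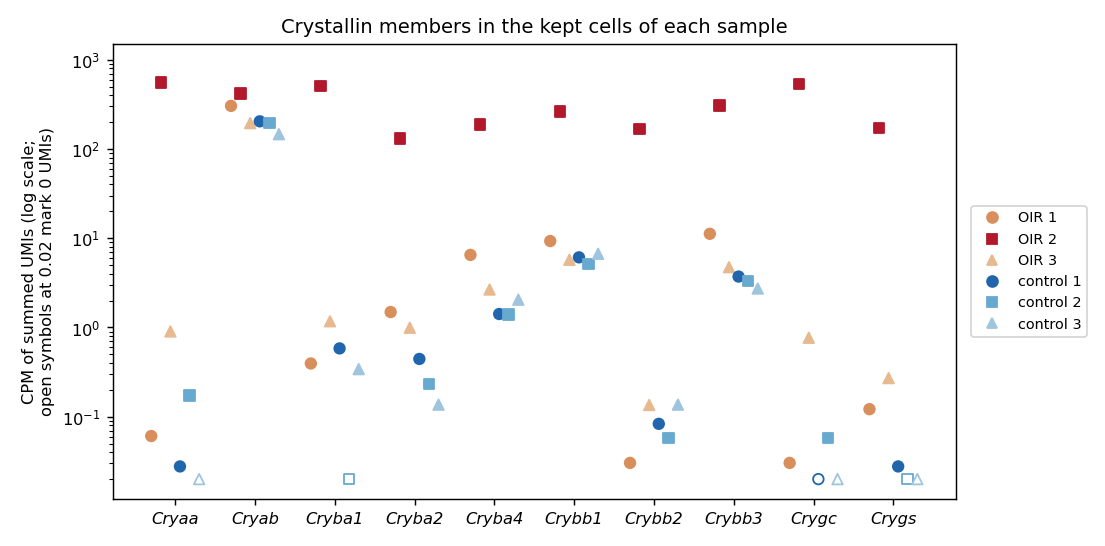
Level of each member in the kept cells of each of the 6 samples, in CPM on a log axis, with open symbols for samples without a UMI. OIR 2 (dark red squares) sits between 131 and 555 CPM for all 10 members, while the other 5 samples reach 146 CPM or more only for Cryab.

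Cryab, the small heat shock protein, had 304, 418 and 195 CPM in OIR and 204, 197 and 146 CPM in control samples. The groups overlap, since OIR 3 was below control 1 and control 2. Crybb1 and Crybb3, beta crystallins, were the next highest outside OIR 2. Crybb1 had 5.16 to 9.30 CPM and Crybb3 2.73 to 11.2 CPM in those 5 samples, and Cryba4 had 1.39 to 6.50 CPM. Crybb2, Crygs, Crygc and Cryaa stayed at or under 0.902 CPM there. In these 5 samples 3 UMIs amount to 0.0832 to 0.205 CPM, and only OIR 3, with 20 UMIs of Cryaa, 17 of Crygc and 6 of Crygs, and OIR 1, with 4 of Crygs, were above that for these 4 genes.

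The edgeR quasi-likelihood test of all kept cells called 0 of the 10 members with the adjusted p held under 0.05 (Benjamini-Hochberg), and 0% of the 15171 genes tested. At an unadjusted p under 0.05 it marked 9 members and 1192 genes, and DESeq2 called 210 genes and no member, giving most members no adjusted p. The fitted log2 fold change of Cryaa was 11.37 (SE 3.83, adjusted p = 0.58), and 2.74 without OIR 2. With the replicate number as a block, which pairs OIR 2 with control 2, 3 members were called higher in OIR: Cryaa (adjusted p = 0.0052), Crygc (6.8e-05) and Crygs (0.012). In that fit 1.62% of genes were called.

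Most of the crystallin RNA of OIR 2 sat in few barcodes. Those with over 5% of their UMIs from the 9 members other than Cryab numbered 184 in OIR 2, 2 in OIR 3 and 0 in the other 4 samples, where the richest barcode reached 0.277% to 0.371%. The 184 barcodes held 98100 of the 105849 UMIs that these members had in all deposited barcodes of OIR 2, or 92.7%. Between 4% and 6% lay 10 barcodes of OIR 2. The choice of 5% sets the levels given below without the rich barcodes, since 85 kept cells lay over 1%, 33 over 5% and 14 over 20%, and the 9 members in rod-like cells came to 267, 420 and 756 CPM once these were left out. These barcodes were poor in genes, with a median of 283.5 genes and 818.5 UMIs. Removed for holding under 500 genes were 151 of them, and the other 33 were kept as 30 rod-like cells and 1 each of amacrine-like, RPE-like and rod bipolar-like cells.

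**Figure D2:**
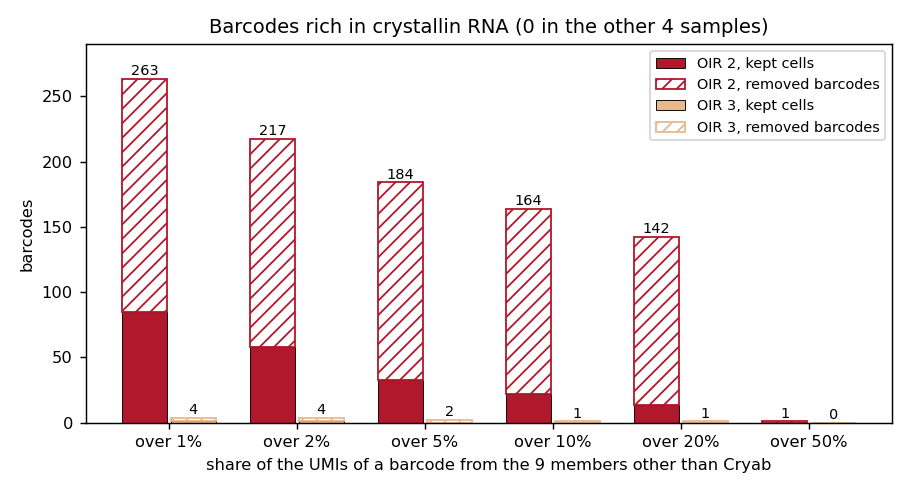
Barcodes (count) whose UMIs come from the 9 members other than Cryab to more than the share on the x axis, for OIR 2 and OIR 3, split into kept cells (filled) and removed barcodes (hatched). At 5% there are 184 in OIR 2 and 2 in OIR 3, and the other 4 samples have 0 at every share shown.

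The RNA of the 184 barcodes was made of lens transcripts well beyond the members. Of all their UMIs, 6.72% came from Cryaa, 6.25% from Crygc, 5.89% from Cryba1 and 2.09% from Cryab. Of the 6 gamma crystallins that are no members, 3 were about as high, with 6.84% for Cryge, 6.27% for Crygd and 5.95% for Crygb, and 3 were lower, with 2.75% for Cryga, 1.86% for Crygf and 0.108% for Crygn. Of genes that are no crystallins, Lim2, a lens fibre membrane protein, gave 0.88% of UMIs, Mip, the lens water channel, 0.390%, and Bfsp1, a lens filament protein, 0.301%. A list of 9 lens genes that are no crystallins, among them these 3, Bfsp2 and Grifin, came together to 19310 CPM in the 184 barcodes and 21.0 CPM in the other barcodes of OIR 2, and 97.8% of the former but 4.87% of the latter had at least 1 UMI of them.

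The 9 lens genes took no part in picking the members or the samples, but the list was written with earlier results of these data known. In kept cells they summed to 5.35, 158 and 4.06 CPM in OIR and 4.25, 8.06 and 3.48 CPM in control samples. OIR 2 stands alone and the other 5 samples overlap. The mean difference, OIR minus control, was 50.5 CPM (55.8 ± 88.5 against 5.26 ± 2.45, SD, n = 3 each), with p = 0.6 in a two-sided exact permutation test, where 3 against 3 samples can give 0.1 at the lowest. Without OIR 2 the difference was -0.557 CPM. In rod-like cells every OIR sample was above every control sample, at 0.808, 275 and 0.686 CPM against 0, 0.204 and 0.412 CPM (exact permutation p = 0.1), but apart from OIR 2 these are 0 to 9 UMIs per sample. The same held for cone-like, amacrine-like and astrocyte-like cells (p = 0.1 each in the exact permutation test, on 0 to 8 UMIs per sample), while in Mueller-like cells the mean was lower in OIR, at 17.5 against 29.7 CPM (p = 0.3). Not every UMI on the list has to be of lens origin. Bfsp2 had 8.68 to 40.4 CPM in Mueller-like cells of all 6 samples, where Mip had 1.46 CPM in OIR 2 and 0 in the other 5.

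With the rich barcodes left out, every major cell type of OIR 2 still held the members. The 9 members summed to 420 CPM in rod-like cells of OIR 2 against 2.31 and 9.38 CPM in OIR 1 and OIR 3 and 1.12 to 2.02 CPM in controls. A UMI of Cryaa was found in 11.2% of rod-like, 11.7% of cone-like, 12.2% of cone bipolar-like, 10.3% of rod bipolar-like and 8.40% of Mueller-like cells of OIR 2. It was also found in 11.8% of 17 microglia-like, 11.9% of 42 RPE-like and 23.1% of 39 amacrine-like cells. In the other 5 samples 0 to 0.0669% of kept cells had one. Over 8 cell types and 9 members, OIR 2 was the highest of the 6 samples in 68 of 72 pairs, and the exceptions were Cryba4 in microglia-like and amacrine-like cells, Crybb3 in amacrine-like cells, and Crygs in microglia-like cells, which had no UMI in any sample.

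**Figure D3:**
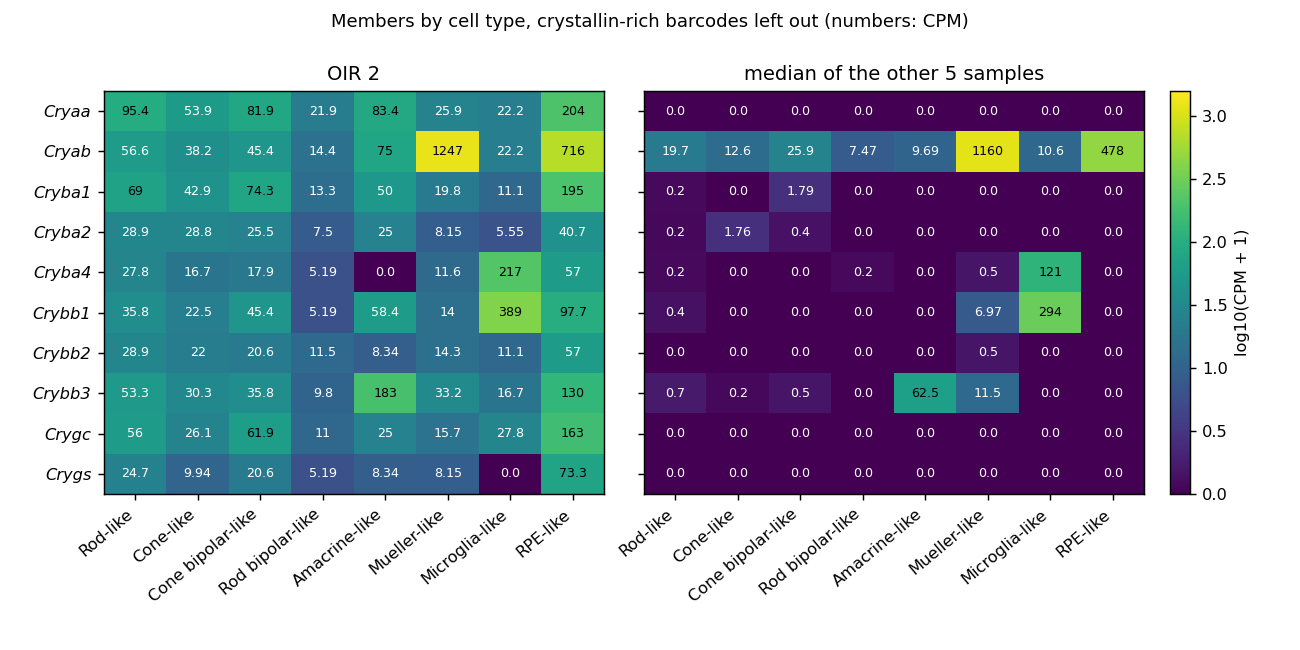
CPM of the 10 members in 8 cell types of OIR 2 (left) and as the median of the other 5 samples (right), without crystallin-rich barcodes, with the color giving log10(CPM + 1). All types of OIR 2 hold nearly all members, while in the other samples Cryab stands out in Mueller-like and RPE-like, Crybb1 and Cryba4 in microglia-like and Crybb3 in amacrine-like cells.

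The level in OIR 2 was shared but not even. Relative to rod-like cells of the same sample, Cryaa stood at 0.565 in cone-like, 0.858 in cone bipolar-like, 0.874 in amacrine-like, 0.272 in Mueller-like, 0.230 in rod bipolar-like and 2.13 in RPE-like cells. Single cells under the 5% limit carried several of these ratios. One RPE-like cell held 104 of the 125 UMIs of the 9 members, 1 cone-like cell 267 of 484 and 1 cone bipolar-like cell 236 of 558. Without the cell of each type with the most member UMIs, the ratio of the 9 members to rod-like cells went from 2.43 to 0.430 in RPE-like, from 0.603 to 0.280 in cone-like and from 0.915 to 0.549 in cone bipolar-like cells, so that the RPE-like level turned from above to below that of rods. It was 0.359 and 0.314 in Mueller-like and 0.216 and 0.171 in rod bipolar-like cells. With barcodes over 1% left out in place of 5%, the ratio was 0.655 in RPE-like, 0.426 in cone-like, 0.588 in cone bipolar-like, 0.547 in Mueller-like and 0.339 in rod bipolar-like cells. These limits were chosen after the values were seen. Cone-like, cone bipolar-like, rod bipolar-like and Mueller-like cells were below rods at every one of them. With each cell thinned to 1000 UMIs, a Cryaa UMI remained in 6.48% of rod-like, 7.62% of cone bipolar-like, 4.64% of cone-like, 3.31% of Mueller-like and 1.14% of rod bipolar-like cells. Rod bipolar-like cells, with a median of 10280 UMIs per cell in OIR 2, lost most of their share by thinning, while rod-like cells had a median of 2175.5 UMIs. The shares before thinning thus look more alike than the levels in CPM. How free RNA, doublets and crystallin made in these cells add up here was not tested, because every deposited barcode had at least 500 UMIs and empty droplets were not analysed here.

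**Figure D4:**
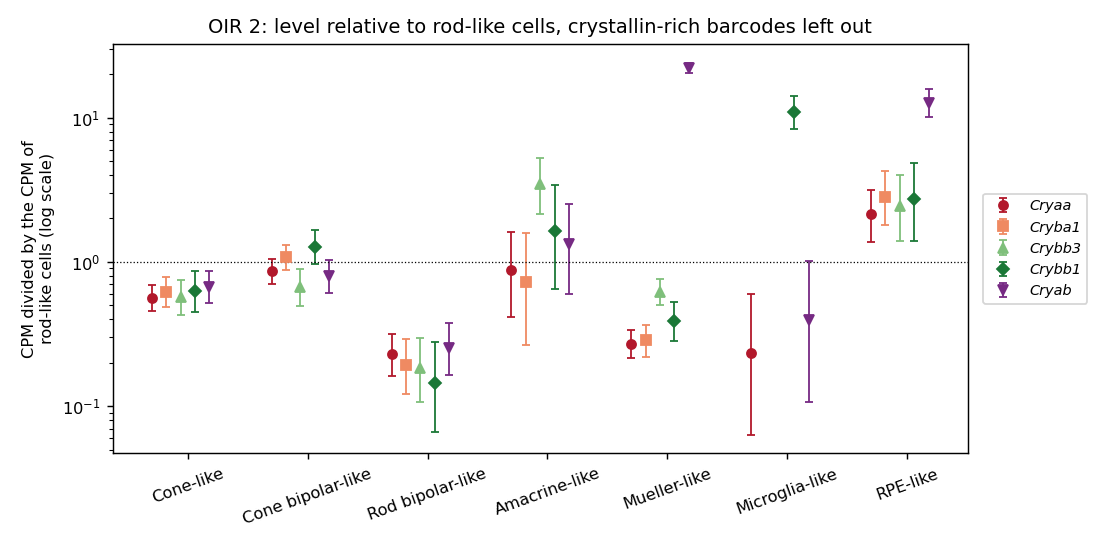
CPM of 5 members in each cell type of OIR 2 divided by the CPM in rod-like cells (log axis), without crystallin-rich barcodes, with 95% intervals for counting error. Ratios on 3 UMIs or fewer are not drawn, and 1 cell holds 104 of the 125 UMIs of the 9 members in RPE-like cells. Cryab stands above Cryaa in Mueller-like (22) and RPE-like cells (12.7), Crybb1 in microglia-like (10.9) and Crybb3 in amacrine-like cells (3.44).

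Cryab was a transcript of Mueller glia, the radial support cells of the retina. Without OIR 2, 24221 of its 27196 UMIs (89.1%) lay in Mueller-like cells. Mueller-like cells had 1174, 1247 and 1150 CPM in OIR and 1055, 1161 and 1160 CPM in control samples. These 6 values overlap and lie within a narrow band, OIR 2 included. The means were 1190 ± 50.5 CPM in OIR and 1125 ± 60.9 CPM in control samples (SD, n = 3 each), and the fitted log2 fold change was 0.02 (SE 0.14, adjusted p = 0.97).

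A Cryab UMI was seen in 82.1% to 91.8% of Mueller-like cells and in 1.56% to 9.63% of rod-like cells, at median depths of 5674 and 1837 UMIs. After thinning to 1000 UMIs the shares were 59.4% to 66.9% and 0.937% to 4.50%. The CPM of Cryab in Mueller-like cells was 46.4 to 110 times that of rod-like cells in 5 samples. In OIR 2 it was 3.70 times over all kept cells and 22 times without the rich barcodes. Rod-like cells carried 337 CPM of Cryab in OIR 2, or 56.6 CPM without the rich barcodes, and 10.5 to 24.8 CPM elsewhere. Both Mueller-like clusters, one led by Slc1a3 and one, with fewer UMIs per cell, by Ndufa4l2, had it at the same level, 1151 and 1148 CPM.

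Another 3 types carried Cryab in every sample. RPE-like cells, the pigment epithelium behind the photoreceptors, had 478, 717 and 507 CPM in OIR and 354, 630 and 372 CPM in control samples. Astrocyte-like cells had 590, 942 and 1101 CPM in OIR and 404, 173 and 607 CPM in control samples, and these rest on 1 to 22 cells each. VSMC-like cells, the smooth muscle and pericyte cluster, had 261 to 822 CPM on 2 to 63 cells. The groups overlap in all of these, and in RPE-like cells the log2 fold change was 0.32 (adjusted p = 0.99), or 0.22 without the rich barcodes. Among neurons Cryab differed by cluster. Cone bipolar-like cells led by Kcng4 had 89.0 CPM and those led by Grik1 65.5 CPM, whereas the clusters led by Adarb2, Cck, Slit2 and Igfn1 had 8.69 to 13.1 CPM. In the order of types, Mueller-like cells stood above RPE-like cells in every sample, while RPE-like, astrocyte-like and VSMC-like cells overlapped one another and all stood above every neuron type.

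Crybb1 and Cryba4, the head-to-head pair on chromosome 5, were found in microglia, the resident macrophages of the retina. Without OIR 2, microglia-like cells held 548 of the 840 UMIs of Crybb1 (65.2%) and 274 of the 378 UMIs of Cryba4 (72.5%), though they were only 0.635% of kept cells. Mueller-like cells held another 122 of the Crybb1 UMIs (14.5%) and 13 of the Cryba4 UMIs (3.44%). The far more numerous rod-like cells held 18 and 12. Crybb1 had 294, 389 and 257 CPM in OIR and 231, 357 and 359 CPM in control microglia-like cells. The groups overlap, with a log2 fold change of 0.04 (SE 0.24, adjusted p = 0.99). A Crybb1 UMI was seen in 61.8% to 94.1% of microglia-like cells and, outside OIR 2, in 0 to 0.217% of rod-like cells, at median depths of 7809 and 1837 UMIs. Thinned to 1000 UMIs, the shares were 14.3% to 41.2% and, outside OIR 2, 0 to 0.0475%.

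Cryba4 had 219, 217 and 133 CPM in OIR and 61.2, 83.9 and 121 CPM in control microglia-like cells. The groups do not overlap, but OIR 3 and control 3 lie close together, within each other's counting intervals (91.3 to 186 and 76.9 to 182 CPM). The log2 fold change was 1.22 (SE 0.30, adjusted p = 0.10), so that Cryba4 was not called, and the adjusted p ran from 0.00774 without a filter on low counts to 0.405 over the alternatives. Of all member UMIs in microglia-like cells, Cryba4 made up 40.7%, 30.0% and 33.7% in OIR and 19.7%, 18.8% and 24.7% in control samples, and Crybb1 54.8%, 53.8% and 65.3% in OIR and 74.3%, 79.7% and 73.1% in control samples. Both genes were seen in 42 of the 72 microglia-like cells of OIR 1, where 53 held Crybb1 and 54 Cryba4, and whether they share cells beyond how common each is was not tested. A cluster left unnamed, led by S100a9 and S100a8 of blood leukocytes and also holding C1qb, had both as well. There Cryba4 had 135, 94.9 and 110 CPM in OIR and 26.8, 75.1 and 39.6 CPM in control samples, and Crybb1 had 66.0 to 268 CPM. The Cryba4 groups do not overlap there either, and the difference was not tested.

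**Figure D5:**
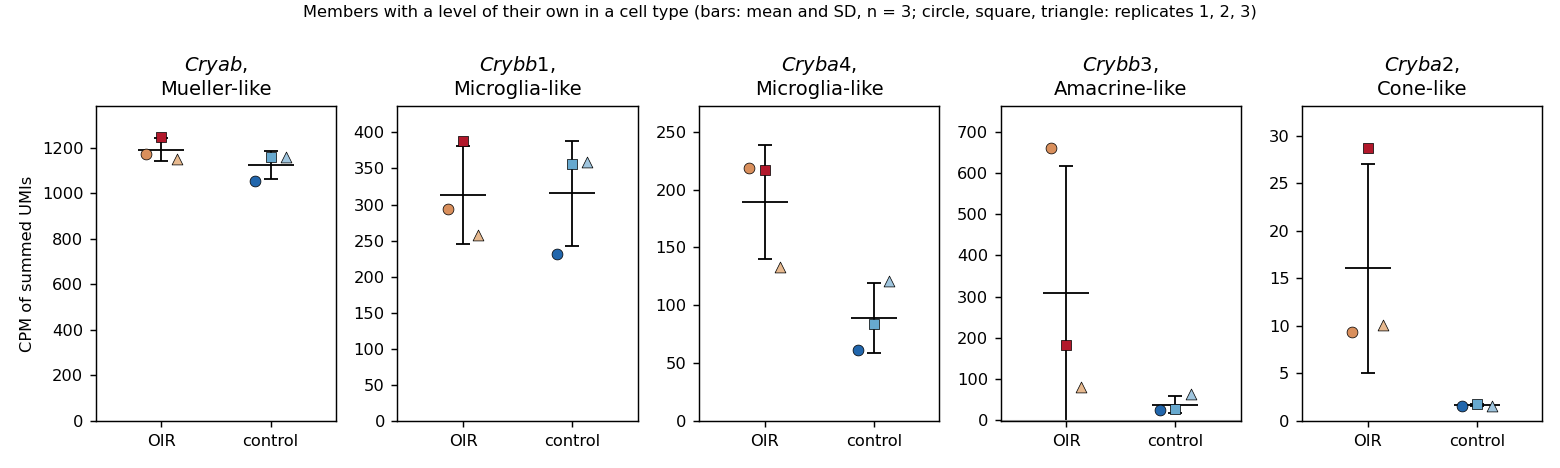
CPM per sample of 5 member and cell type pairs, without crystallin-rich barcodes, with the mean and SD of 3 samples per group. The lower SD bar of Crybb3 in OIR runs to below 0. In these pairs the member stood above the level of rod-like cells of the same sample, except for Cryba2 in OIR 2. There cone-like and rod-like cells were alike in Cryba2, while the 9 members summed were lower in cone-like cells. Cryab and Crybb1 overlap between the groups, while Cryba4, Crybb3 and Cryba2 are higher in all 3 OIR than in all 3 control samples. The pairs were picked with their values known, and how many of all genes separate the groups in this way was not counted.

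Crybb3 was seen in a few amacrine-like cells, the inhibitory interneurons of the inner retina. Amacrine-like cells had 660, 183 and 79.5 CPM in OIR and 23.4, 27.7 and 62.5 CPM in control samples, without the rich barcodes. The groups do not overlap, but OIR 3 and control 3 are close and the mean of OIR, 307.5 ± 309 CPM (SD, n = 3), rests on OIR 1, where 4 cells held all 181 UMIs. The log2 fold change was 3.31 (SE 0.69, adjusted p = 0.62), or 3.25 without the rich barcodes, and it was called by DESeq2 (adjusted p = 4.5e-04) and without a filter on low counts (9.3e-13). Over the 6 samples, 17 amacrine-like cells with at least 3 Crybb3 UMIs held 244 of 264 UMIs. In these 17 cells Maf, a transcription factor of the lens and of some interneurons, stood at 1462 CPM, against 29.8 CPM in the 320 amacrine-like cells without a Crybb3 UMI. Maf is named as the highest of the genes ranked by the ratio of these levels, with 20 CPM added to each (29.8). Other genes were higher in the 17 cells too, the next with a ratio of 14.1. Maf was present in 15 of the 17 and 19 of the 320. These shares are not at equal depth. The cells with Crybb3 had a median of 16700 against 6397 UMIs in OIR 1 and 6622 against 2515 in control 3. They were also deeper in OIR 3 and control 1, but not in OIR 2 (2132 against 2212). The 17 cells came from 5 samples, 4 in OIR 1, 3 in OIR 2, 2 in OIR 3, 5 in control 1 and 3 in control 3.

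Mueller-like cells also held Crybb3, at 21.4, 33.2 and 11.2 CPM in OIR and 11.5, 18.0 and 8.79 CPM in control samples. The groups overlap, and outside OIR 2 these cells stood well above rod-like cells, which had 0.368 to 3.58 CPM. Of the 705 UMIs of Crybb3 outside OIR 2, 335 lay in Mueller-like and 242 in amacrine-like cells, and 29 in VEC-like cells. In VEC-like cells of control 1 the level was 22.2 CPM, and that of OIR 1 was 19.4 CPM.

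Maf was itself present where Crybb1, Cryba4 and Crybb3 were found. Microglia-like cells had 296 to 426 CPM of Maf, amacrine-like cells 83.2 to 357 CPM and Mueller-like cells 80.9 to 122 CPM, against 1.65 to 6.73 CPM in rod-like, 3.43 to 6.54 CPM in cone bipolar-like and 0 to 59.7 CPM in RPE-like cells. Astrocyte-like cells had 20.1 to 166 CPM and VEC-like cells, which also held Crybb3, 0 to 18.6 CPM. Outside OIR 2, amacrine-like cells held 0 UMIs of Crybb1 and 1 of Cryba4. With OIR 2 included, Maf was seen in 15 of the 17 amacrine-like cells with at least 3 Crybb3 UMIs, but in only 19 of the 320 without one. The Maf core site was not in the window of Crybb3. Cryaa and Cryba1 held it and had 0 and 1 UMIs in microglia-like cells outside OIR 2. Whether Maf acts on any member was not tested.

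Cryba2 was the one member called between OIR and control cells of a type. Cone-like cells had 9.37, 28.8 and 10.1 CPM of Cryba2 in OIR and 1.62, 1.76 and 1.62 CPM in control samples. Every OIR sample was above every control sample, and OIR 1 and OIR 3 were alike. The cause of this difference was not tested. The counts were small, with 27, 55 and 15 UMIs in OIR and 9, 3 and 1 in control samples. Only the OIR samples reached the level that the filter on low counts asks for. Cryba2 could thus pass it only through the group where it was high, and its call is reported without weight. The log2 fold change was 3.16 (SE 0.51, edgeR adjusted p = 0.00426), 2.49 without OIR 2 (adjusted p = 0.0164), and the adjusted p stayed at or under 0.0316 over the alternatives run. In rod-like cells of OIR 1 and OIR 3 Cryba2 stood at 0.808 and 0.534 CPM, and of its 93 UMIs outside OIR 2, 55 were in cone-like and 20 in cone bipolar-like cells. The cone bipolar-like cluster led by Slit2 had 9.59 CPM and a UMI in 5.10% of cells over all samples, against 7.76 CPM and 4.53% in cone-like cells. A Cryba2 UMI was seen in 7.07%, 15.5% and 7.08% of OIR and 0.978% to 1.65% of control cone-like cells. In OIR 2 the ratio to rods was 0.997, so that cone-like cells held as much Cryba2 as rod-like cells there. The 9 members summed were lower in cone-like than in rod-like cells of OIR 2, at 253 against 420 CPM without the rich barcodes. Of the 484 UMIs behind these 253 CPM, 267 lay in 1 cone-like cell. What part of the Cryba2 in OIR 2 was made by cone-like cells was not tested.

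Cryaa, Crygc, Crygs, Crybb2 and Cryba1 had no cell type of their own that reached more than a few CPM. Outside OIR 2 there were 26 Cryaa UMIs in kept cells, 21 of them in rod-like cells, 19 Crygc UMIs, 11 Crygs UMIs and 10 Crybb2 UMIs, 9 of them in Mueller-like cells. OIR 3 held 20 of the 26 Cryaa and 17 of the 19 Crygc UMIs, with 15 of Cryaa in 1 cell. Cryba1 had 65 UMIs outside OIR 2, of which 38 were in cone bipolar-like cells at 1.34 and 4.6 CPM in OIR 1 and OIR 3 and 1.79, 0 and 3.02 CPM in control samples. These groups overlap.

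Tested per cell type over all genes, the members showed 1 call in 8 types, Cryba2 in cone-like cells, where 1.15% of 9428 genes were called. In rod-like cells 2.17% of genes were called and 0 members, though all 10 had an unadjusted p under 0.05, as had 18.6% of all genes. Without OIR 2 that count was 3 of the 9 members tested, beside 12.6% of all genes. With a term for Xist it was 0 members, beside 13.7% of all genes. No member was called in Mueller-like (2.73% of genes), rod bipolar-like (2.28%), cone bipolar-like (0.818%), microglia-like (0.323%), RPE-like (0.0567%) or amacrine-like cells (0%). The number of members that passed the filter on low counts was 3 in Mueller-like, 2 in rod-like, cone-like and microglia-like cells and 1 in each of the other 4 types, and the others were fitted beside the genes that passed. With the replicate number as a block, 9 members were called higher in rod-like cells of OIR, all but Cryab (adjusted p = 0.096), where 10.5% of genes were called in that fit, and the log2 fold change of Cryaa there was 11.31 (adjusted p = 1.8e-06). The value of Cryaa in rod-like cells was 11.09 without the block (SE 3.45, adjusted p = 0.13) and 2.37 without OIR 2 (adjusted p = 0.56).

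Other stress genes of Mueller-like cells were read from lists beside Cryab. Of 11 heat shock response genes tested there 1 was called, Bag3, a co-chaperone that works with small heat shock proteins. Bag3 had 35.1, 23.3 and 25.5 CPM in OIR and 12.2, 16.1 and 10.6 CPM in control samples (log2 fold change 1.08, SE 0.24, adjusted p = 0.0444). The median log2 fold change of the 11 was -0.02, against -0.01 for all genes. Of 7 small heat shock genes besides Cryab, 4 were tested and 0 called, and their median was -0.26. Hspb1 had 2.52, 2.04 and 0.303 CPM in OIR and 5.14, 3.14 and 4.69 CPM in control samples (adjusted p = 0.25). Of 10 gliosis genes 7 were tested, with a median of 0.78, and 1 was called. It was Nes, the filament protein nestin, with 49.0, 25.0 and 58.8 CPM in OIR and 7.03, 12.6 and 7.62 CPM in control samples (log2 fold change 2.27, SE 0.34, adjusted p = 0.0110). Vim, another glial filament, was 2501 to 2731 CPM in OIR and 1066 to 1779 CPM in control samples (log2 fold change 0.78, adjusted p = 0.078). Of 9 regulators of crystallin genes 5 were tested in Mueller-like cells and 0 called, among them Pax6 (-0.20), Sox2 (0.06) and Maf (-0.22), and Foxe3, which is made in lens epithelium, had 0 UMIs there in all samples.

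In rod-like cells Hspb6, a small heat shock protein, fell in OIR, from 84.7, 110 and 96.8 CPM in control samples to 63.9, 52.5 and 56.2 CPM (log2 fold change -0.91, SE 0.14, adjusted p = 0.0204). No control sample overlapped an OIR sample. Vim rose there (1.06, adjusted p = 0.0440), and 0 of 10 heat shock response genes were called. Vim is also a marker of Mueller glia, and what part of it in rod-like cells was free RNA or came with doublets was not tested. Bag3 and the other genes named from these lists are single genes of short lists, and no list was tested as a whole.

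Crym, Cryz, Cryl1 and Cryzl1 carry the crystallin name but are enzymes or hormone-binding proteins of another kind. Crym, which binds thyroid hormone, was called in 3 cell types. In rod-like cells it had 39.7, 37.5 and 56.0 CPM in OIR and 21.5, 17.2 and 18.0 CPM in control samples (log2 fold change 1.08, SE 0.17, adjusted p = 0.0203). It was also called higher in cone-like (1.83, adjusted p = 0.00528) and rod bipolar-like cells (1.45, adjusted p = 0.0213). In Mueller-like cells, where it was far more abundant, Crym had 3383, 3151 and 3832 CPM in OIR and 1121, 1632 and 2204 CPM in control samples, groups that do not overlap, but it was not called (1.00, SE 0.24, adjusted p = 0.0611). Cryz, a quinone oxidoreductase, rose in rod bipolar-like cells (1.33, adjusted p = 0.00333). OIR 2 did not stand apart in Crym, unlike in the members. What part of the Crym in rod-like, cone-like and rod bipolar-like cells was free RNA of Mueller glia or came with doublets was not tested.

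Over 55 sums of a sample and cell type with at least 100000 UMIs, the genes most like Cryab in log2(CPM + 1) among 15673 compared were Wipi1 (r = 0.884), Adhfe1 (0.879), Nr2e1 (0.875) and Car14 (0.871), and Rlbp1, a Mueller marker, stood at 0.854. For the 9 members other than Cryab summed, the highest was Tmem50a at 0.664, with Lamp1 (0.624) and Maf (0.623) next to each other, while the lens genes Mip and Bfsp1 stood at 0.491 and 0.462. These sums share libraries, depth and cell types, and the values are given as a description.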

How the data were processed

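Retinal cells of 3 OIR and 3 control samples were profiled with 10x 3' libraries. The authors deposited filtered UMI counts per gene and barcode, made with Cell Ranger, and the matrix headers name version 3.1.0. The submitters' processing notes name mm10, while the methods name another build and version. Cells with 500 to 5000 genes and at most 20% mitochondrial UMIs were kept, as in the methods. Seurat 5.3.0 (R 4.3.3) integrated the samples, with crystallins left out of the variable genes, and clusters were named from marker genes. Doublets were not removed, except in an alternative that dropped the highest Scrublet scores. Deposited counts were summed per sample and cell type and tested with edgeR 4.0.16 (TMM, quasi-likelihood, filterByExpr), with the members fitted beside the genes that passed. Calls needed a Benjamini-Hochberg adjusted p under 0.05 and an absolute log2 fold change of 0.25. The SE printed with an edgeR fit was worked back from the test, as the absolute log2 fold change divided by the square root of the F statistic. The members and lists were chosen with earlier results of these data known. Members were all named, and other genes only from fixed lists or for leading a cluster or likeness ranking. The Crybb3-positive amacrine-like cells were looked at after their values were seen.

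Same-numbered samples deviated together over all kept cells (r of 0.618, 0.256 and 0.465) and in rod-like cells (0.428, 0.15 and 0.324), all above 0.1, so fits with the replicate number as a block are given there. OIR 3 with control 2 (0.361 and, in rod-like cells, 0.233) and OIR 2 with control 3 (0.183 and 0.135) were above 0.1 too. Pairs of replicate 1 with another number were negative. The values thus set replicate 1 apart but do not single out the pairing of OIR 2 with control 2. Nothing in the labels says what a number shares. Each sample pools 2 mice, and n counts samples. Totals were 15788524 to 42606878 UMIs per sample. Intervals are exact 95% intervals, and these and the floor of 3 UMIs cover counting error only. Crystallin-rich barcodes were those with over 5% of UMIs from the 9 members other than Cryab. Cells were thinned to 1000 UMIs for shares. Alternatives were DESeq2 1.42.0, no filter on low counts, a block, a term for Xist, each sample left out, a mitochondrial limit of 10%, doublet removal, crystallins among the variable genes, rich barcodes left out (also over 1% or 20%, and without the richest cell of each type), and replicates 2 and 3 alone. Scripts were tested on simulated data. There the edgeR fit over all kept cells recovered 0% of 2-fold and 64.5% of 4-fold changes. In Mueller-like and microglia-like cells it recovered 58.5% and 35.5% of 2-fold changes, and 9.3% and 11.2% of those calls were false. Python 3.11.15, pandas 2.3.3, SciPy 1.17.1 and scanpy 1.11.5 were used. Promoters are from RefSeq. Some single genes are not reported here.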

Additional observations from a re-analysis of the deposited data

Results flagged for a closer look

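Barcodes with under 500 genes, which the comparisons left out, held crystallin RNA above the level of every control sample in all 3 OIR samples. The 9 members other than Cryab summed to 26.8 CPM in OIR 1, 53630 CPM in OIR 2 and 249 CPM in OIR 3, where the highest control sample had 11.9 CPM. The value of OIR 1 was no higher than the 29.1 CPM of its own kept cells. In OIR 3, 1 barcode with under 500 genes held 170 of the 707 UMIs that these members had in all deposited barcodes. The 9 lens genes that are no crystallins summed to 3261 CPM in OIR 2 and 35.6 CPM in OIR 3, where the highest control sample had 3.97 CPM. In OIR 1 the lens genes had 0 CPM in these barcodes. OIR 3 held 14 barcodes with at least 5 UMIs of the 9 members, of which 1 had the same barcode as a crystallin-rich barcode of OIR 2. The part of sequences shared between libraries in the value of OIR 3 was not tested.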

How the results depend on the processing

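Calls are counted here as pairs of a member and a cell type over the 8 types. The main fit covered 10 members in each type, or 9 in microglia-like cells. It called 1 pair, against 2 with DESeq2, 54 without a filter on low counts, 39 with the replicate block, 30 in replicates 2 and 3 alone, and 1 to 13 with each sample left out (13 without OIR 1, 3 without OIR 3). The share of all genes called, summed over the types, was 1.61%, against 2.55% with DESeq2, 2.05% without the filter, 5.21% with the block, 6.45% in replicates 2 and 3 alone, 1.66% without OIR 1 and 0.55% without OIR 3. With the block the members called were 9 in rod-like (10.5% of all genes called), 9 in cone-like (4.57%) and 8 in cone bipolar-like cells (5.19%). They were 6 in rod bipolar-like (6.02%), 4 in Mueller-like (3.72%) and 3 in RPE-like cells (0.85%). Only 1 to 3 members per type passed the filter on low counts in these fits, and the others were fitted beside the genes that passed. In the types other than rod-like at least 1 same-numbered pair of samples had a correlation of 0.1 or less. Over all kept cells 0 members were called, 3 with the block, and 0 to 0 with each sample left out. The log2 fold change of Cryaa in rod-like cells ran from 2.37 to 14.55 with each sample left out, and that of Cryba2 in cone-like cells from 2.49 to 3.45. That of Cryab in Mueller-like cells was -0.01 without OIR 1, -0.031 without control 1 and -0.050 in replicates 2 and 3 alone (-0.031 to 0.058 with each left out). That of Crybb1 in microglia-like cells was -0.08 without OIR 2, -0.11 without control 1 and -0.11 in replicates 2 and 3 alone (-0.11 to 0.16). Cryba4 in microglia-like cells ran from 0.98 to 1.46 and Crybb3 in amacrine-like cells from 2.16 to 3.79. The control mean of Cryba2 in cone-like cells went from 1.66 to 1.78 CPM with the highest Scrublet scores removed, and the share of Mueller-like cells with Cryab from 88.8% to 61.9% after thinning. The lens gene difference ran from -0.557 CPM, without OIR 2, to 76.4 CPM. The causes were not tested. Each group had 3 samples, which limits every call, and microglia-like and amacrine-like cells numbered 17 to 81 and 25 to 155 per sample.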
